A study of Mus musculus with 12 samples.

Results

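The oxidative phosphorylation system of the mouse was examined in RNA sequencing libraries from lung cells enriched for endothelium. The mice had or lacked endothelial TET2 and were fed chow or a high-fat diet (HFD). Genes were chosen by symbol: protein-coding genes whose names start with Nduf, Sdha to Sdhd, Uqcr, Cox followed by a digit, Atp5 or mt-, in any of the 4 deposited tables of gene expression. Of 9338 genes in those tables, 30 met this rule, out of 120 such genes in the GENCODE M21 annotation of the same genome assembly. Each table held the genes that had passed the authors' unadjusted p threshold in its own comparison, so that a gene had values only in the groups of a table in which it had passed. The other 90 family genes were not analysed here, and every count and median below is conditional on that selection.

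All mice were male, of a C57Bl/6J background and homozygous for floxed TET2 (TET2 fl/fl), and all were given tamoxifen (40 mg/kg daily for 3 days) when 6 to 8 weeks old. TET2 KO mice carried Cdh5-CreERT2, a tamoxifen-activated Cre recombinase driven by the promoter of the endothelial VE-cadherin gene, and WT mice were Cre-negative. A week after tamoxifen, mice were moved to HFD (60% of kcal from fat) or kept on standard chow (13% of kcal from fat) for 20 weeks, and all were 30 weeks old at collection. Lung cells were enriched with CD31 microbeads, and poly(A) RNA from 3 mice in each of the 4 groups was sequenced, a library to a mouse (n = 3 throughout). Libraries held 36721391 to 56789100 reads assigned to genes, the deepest being the first of WT HFD, and among the 26 genes listed in WT mice the mean on chow ran from 27.4 normalized counts (counts divided by a size factor per library) for Cox8b to 4169 for Cox6a1. Tet2 was not listed in either comparison of TET2 KO with WT, so the genotype labels could not be checked against its counts. Endothelial markers were abundant, but the selection was an enrichment: in the table of WT mice, 8 of 15 lung epithelial markers were listed and summed to 4392 to 5901 FPKM (read fragments scaled by gene length and library depth) in chow libraries, above the 312 to 877 FPKM of the 13 listed endothelial markers (of 14). The epithelial sum includes Scgb1a1, with 82705, 108475 and 109076 normalized counts on chow. The next highest of the 8, Sftpb, had 9119, 8753 and 24120, beside 9834, 8346 and 20798 for the endothelial Cdh5. The sums are therefore no measure of the shares of cell types. In such bulk RNA, fewer cells of a type and less RNA per cell cannot be told apart.

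The respiratory chain passes electrons from NADH through complex I, or from succinate through complex II, to complex III and then to complex IV (cytochrome c oxidase), which reduces oxygen, while ATP synthase uses the resulting proton gradient to make ATP. Most subunits and the assembly factors are encoded in the nucleus, and a small core of subunits is encoded by the mitochondrial genome. Several complex IV subunits come as pairs of isoforms, in which one is found in most tissues and the other mainly in heart, skeletal muscle or brown fat, as are Cox7a1 and Cox8b. Quiescent endothelial cells rely largely on glycolysis for ATP, with mitochondria serving also in signalling and biosynthesis.

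The 30 genes came from all parts of the system. They were 11 of 31 annotated accessory subunits of complex I, 1 of 7 core subunits matched by symbol (Ndufv2) and 2 of 8 complex I assembly factors (Ndufaf3 and Ndufaf6). Complex II gave Sdhc, 1 of 4 subunits, and 2 of 4 assembly factors (Sdhaf1 and Sdhaf3). Complex III gave 3 of 8 genes, complex IV 3 of 18 subunit genes and 3 of 9 assembly factors, and ATP synthase 3 of 18 genes. Of the 13 protein-coding genes of the mitochondrial genome, mt-Atp6 alone was listed.

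Sequence upstream of the genes is shown first. RefSeq start sites of GRCm38.p6 were found for 23 of the 30 genes, not for Cox17, Ndufa2, Ndufaf6, Ndufb9, Sdhc, Uqcrc2 and mt-Atp6, and the 250 bases before each were searched on both strands. The core of the NRF1 site, GCATGCGC, lay before Atp5g2, Cox6a1, Ndufa6 and Ndufa8 (4 of 23, 17.4%, against 2.26% of 32851 start sites of all genes). NRF1 is a nuclear factor known for binding promoters of respiratory chain genes. The core of the ETS site, CCGGAAG, which the factor GABP also uses, lay before Atp5e, Cox10, Cox6a1, Sdhaf3 and Uqcrh (5 of 23, 21.7%, against 6.91%). An E-box of the form CAGCTG, a sequence bound by muscle bHLH factors, lay before Cox8b, Ndufa8, Ndufb10, Ndufs5 and Ndufv2 (21.7%, against 13% of all start sites), and a TATAAA box before Cox10 and Ndufa7 (8.7%, against 12.4%). Matches to different motifs were counted separately, and the NRF1 matches before Cox6a1 and before Atp5g2 each overlap a match on the other strand. Median GC content of the windows of the family was 58.6%, against 52.4% for all start sites, and their median number of CpG dinucleotides was 18, against 6. GCATGCGC and CCGGAAG each hold a CpG, CAGCTG and TATAAA do not, and the shares were not matched for composition. Shares of the family count genes, whereas those of all start sites count windows. A match is a match of letters, not a shown binding site. The stretches below are given because they stand before a widely expressed complex IV subunit, a complex I subunit and the pair of muscle and brown fat isoforms described below. They are the longest parts of each window outside annotated exons, read 5′ to 3′ on the strand of the gene, with GCATGCGC and CAGCTG and their reverse complements in capitals.
Cox6a1, chr5:115348982-115349129, minus strand: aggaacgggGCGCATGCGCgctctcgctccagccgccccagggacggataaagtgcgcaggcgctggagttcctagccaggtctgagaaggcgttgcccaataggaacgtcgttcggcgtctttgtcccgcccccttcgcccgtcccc
Ndufa6, chr15:82354323-82354541, minus strand: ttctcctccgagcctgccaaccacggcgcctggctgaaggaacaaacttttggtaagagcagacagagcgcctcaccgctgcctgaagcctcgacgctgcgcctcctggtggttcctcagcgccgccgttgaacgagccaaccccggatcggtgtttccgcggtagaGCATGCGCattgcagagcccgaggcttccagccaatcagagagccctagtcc
Cox7a1, chr7:30183921-30184143, plus strand: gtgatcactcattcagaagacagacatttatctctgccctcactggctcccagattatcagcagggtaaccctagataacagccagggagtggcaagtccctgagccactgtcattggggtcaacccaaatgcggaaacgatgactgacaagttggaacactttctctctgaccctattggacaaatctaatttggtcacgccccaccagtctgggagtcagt
Cox8b, chr7:140900447-140900696, minus strand: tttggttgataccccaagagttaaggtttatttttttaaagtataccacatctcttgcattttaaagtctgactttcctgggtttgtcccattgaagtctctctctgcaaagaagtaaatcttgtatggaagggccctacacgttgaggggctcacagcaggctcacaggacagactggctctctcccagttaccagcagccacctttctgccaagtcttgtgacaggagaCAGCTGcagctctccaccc
The windows of Cox7a1 and Cox8b held 4 and 1 CpG dinucleotides, against 26 for Cox6a1 and 18 for Ndufa6, and no NRF1 core was found in either.

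The effect of diet in WT mice was examined first, as this comparison held 26 of the 30 genes. On HFD, 22 of the 26 genes were modestly higher, by 0.27 to 1.00 on the log2 scale, while Cox7a1, Cox8b and Atp5g1 were lower. EdgeR's quasi-likelihood test was applied to the counts of every listed gene, and a gene was called at an unadjusted p under 0.05, the threshold by which the study listed genes. Of the 26 genes, 25 were called, 22 of them higher on HFD and 3 lower. Among all 7330 genes of that table, selected in the same way, 91.6% were called, 42.4% higher and 49.2% lower. The median log2 fold change of the 26 genes was 0.33, against -0.32 for all listed genes. Of the 4686 listed coding genes that averaged 50 normalized counts or more, 62.5% were higher, with a median of 0.40. Mitochondrial ribosomal protein genes gave 19 of 22 higher and cytosolic ribosomal protein genes 9 of 11. After Benjamini-Hochberg adjustment over 23768 genes, 2 of the 26 genes passed 0.05, both of them lower on HFD (Cox7a1 and Cox8b), against 18.6% of the table. The groups did not overlap for any of the 26 genes, against 86.5% of all listed genes, a share set largely by the listing itself. Among annotated genes, the family was not listed more often than others: 21.7% of its 120 genes were in this table, against 25.0% of all protein-coding genes. These shares, here and below, include annotated genes not expressed in these cells, so they do not compare rates among expressed genes.

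**Figure D1:**
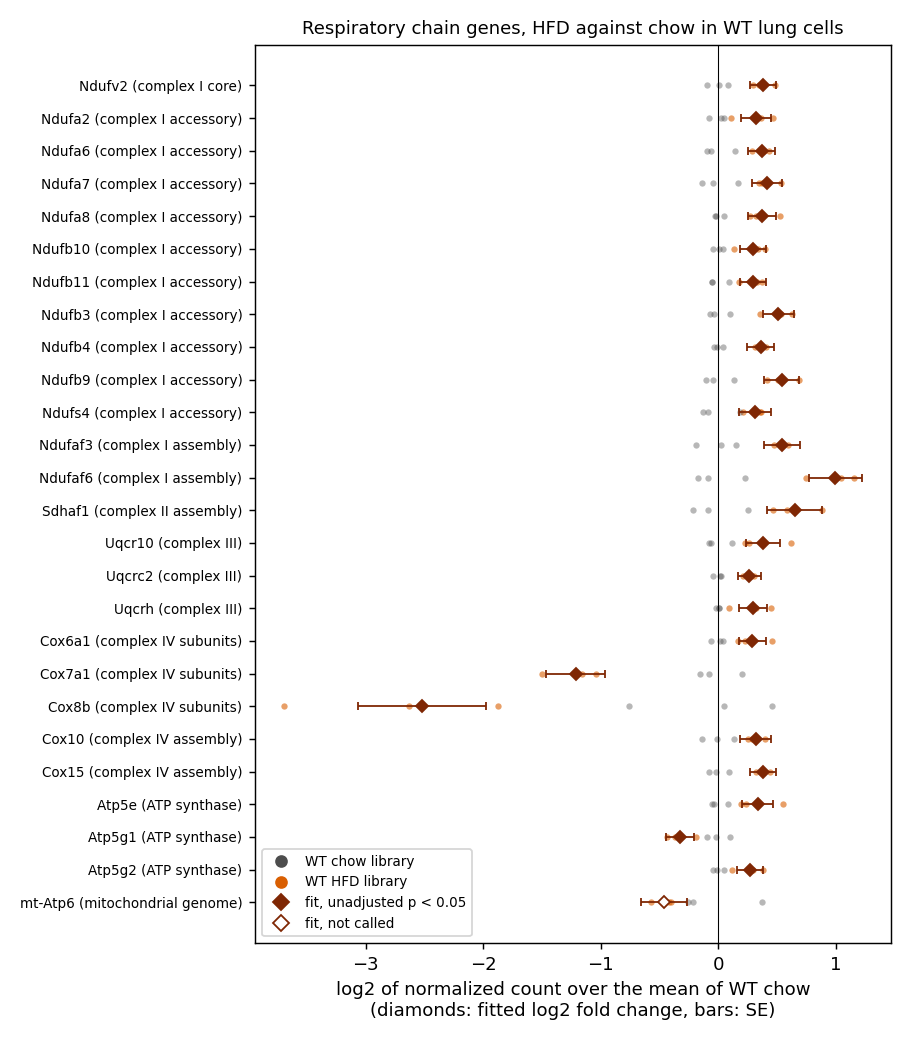
Each row is a respiratory chain gene listed in HFD against chow in WT mice, with its part in the system. Small points are the 3 libraries of each group as log2 of the normalized count over the mean of WT chow, diamonds are fitted log2 fold changes with bars of 1 SE, and filled diamonds had an unadjusted p under 0.05. Most genes sit at 0.27 to 0.54, Ndufaf6 at 1.00, and Cox7a1 and Cox8b at -1.21 and -2.52.

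In complex I, all 13 listed genes rose on HFD. Ndufv2, a core subunit that holds an iron-sulfur cluster of the NADH-oxidizing module, had 1282, 1353 and 1197 normalized counts on chow and 1630, 1571 and 1788 on HFD. Every HFD library was above every chow library, and the log2 fold change was 0.38 (SE 0.11, adjusted p = 0.0804 by edgeR). Ndufb3, an accessory subunit of the membrane arm, had 569, 642 and 585 normalized counts on chow and 768, 865 and 928 on HFD. It rose by 0.51 on the log2 scale (SE 0.13, edgeR adjusted p = 0.0616). Ndufb9, another accessory subunit of the membrane arm, had 361, 427 and 376 on chow and 551, 516 and 625 on HFD. Its log2 fold change was 0.54 (SE 0.15, edgeR adjusted p = 0.0687), and Ndufa7, an accessory subunit of the peripheral arm, rose by 0.42 (SE 0.13, edgeR adjusted p = 0.0877). The other 7 accessory subunits (Ndufa2, Ndufa6, Ndufa8, Ndufb4, Ndufb10, Ndufb11 and Ndufs4) rose by 0.30 to 0.37.

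Of the complex I assembly factors, which help build the complex but are not part of it, Ndufaf3 and Ndufaf6 were listed. Ndufaf6 had 68.5, 64.5 and 84.9 normalized counts on chow and 162, 150 and 122 on HFD. It rose 1.99-fold, a log2 fold change of 1.00 (SE 0.23, edgeR adjusted p = 0.0507). Ndufaf3 had 257, 298 and 326 on chow and 407, 444 and 431 on HFD, with a log2 fold change of 0.54 (SE 0.15, edgeR adjusted p = 0.0745), close to those of Ndufb9 and Ndufb3. Exons of Ndufaf3 overlap those of Impdh2 on the opposite strand, so that reads of the overlap cannot be told apart where counting ignored strand. Exons of Ndufb9 overlap those of Gm49356 on the same strand, which counting by strand would not separate either. Exons of 9 more of the 30 genes overlap those of an annotated gene. The overlapping genes lie on the same strand for Atp5g2, Cox17 and mt-Atp6, and on the opposite strand for the others.

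Of complex II, an assembly factor was listed in this comparison and no subunit. Sdhaf1, which acts in the iron-sulfur cluster loading of complex II, had 92.3, 66.8 and 73.1 normalized counts on chow and 116, 143 and 107 on HFD, and rose by 0.65 on the log2 scale (SE 0.23, edgeR adjusted p = 0.125). The 3 listed genes of complex III rose by a narrower margin. Uqcr10, a small subunit, rose by 0.38 (SE 0.15), Uqcrh, the hinge protein that contacts cytochrome c1, by 0.30 (SE 0.12), and Uqcrc2, a core structural subunit, by 0.27 (SE 0.10), with edgeR adjusted p values of 0.147, 0.165 and 0.125. Without WT HFD library 3 the value of Uqcr10 was 0.25, not called. On the FPKM scale, which divides by gene length, Uqcrh was at 49.3 ± 0.750 on chow and 60.2 ± 7.39 on HFD (SD), and Uqcr10 at 34.7 ± 2.78 and 45.0 ± 6.95.

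Of 18 complex IV subunit genes 3 were listed, each of a different subunit, 1 higher on HFD and 2 lower. Cox6a1, the widely expressed form of subunit 6a and the highest of the 26 genes per length, was at 142.3 ± 5.61 FPKM on chow and 173 ± 18.2 on HFD (SD), and its log2 fold change was 0.29 (SE 0.12, edgeR adjusted p = 0.159). Cox7a1, the heart and skeletal muscle form of subunit 7a, had 96.1, 79.3 and 75.2 normalized counts on chow and 40.6, 29.6 and 37.5 on HFD. The lowest chow library was above the highest HFD library, and Cox7a1 fell by 1.21 on the log2 scale (SE 0.25, edgeR adjusted p = 0.0440). Cox8b, the muscle and brown fat form of subunit 8, had 16.2, 28.3 and 37.6 normalized counts on chow and 4.43, 2.11 and 7.49 on HFD, and fell by 2.52 (SE 0.55, edgeR adjusted p = 0.0473). These were the 2 genes that passed after adjustment, and both remained called whichever library was left out. Per length they were low, at 3.74 ± 0.500 and 1.82 ± 0.711 FPKM on chow (SD), beside Cox6a1. The assembly factors Cox10 and Cox15, which act in making heme A for complex IV, rose by 0.32 (SE 0.13) and 0.38 (SE 0.11), with edgeR adjusted p values of 0.170 and 0.0804.

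Brown fat markers, and some but not all listed muscle markers, were lower on HFD in the same libraries. Of 4 brown fat markers 2 were listed, both lower on HFD. Ucp1, the uncoupling protein of brown fat, had 212, 493 and 468 normalized counts on chow and 37.6, 75.1 and 93.1 on HFD, a log2 fold change of -2.52 (SE 0.44, edgeR adjusted p = 0.0368). Plin1, which coats lipid droplets of fat cells, had a log2 fold change of -1.62 (SE 0.46), and the summed level of this pair was 3.33 to 7.60 FPKM on chow and 0.610 to 1.50 on HFD. Of 10 cardiac and skeletal muscle markers 3 were listed. Acta1 (-1.64) and Ckm (-1.66), the skeletal actin and the muscle creatine kinase, fell, and Myh7, a slow myosin heavy chain, rose (0.91), and their sum was 0.957 to 2.18 FPKM on chow and 0.980 to 1.83 on HFD. Cpt1b, the muscle and brown fat form of carnitine palmitoyltransferase, fell by 0.80 on the log2 scale. No library of either group had any of these 6 genes at 0 counts. Their part in the fall of Cox7a1 and Cox8b was not tested.

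**Figure D2:**
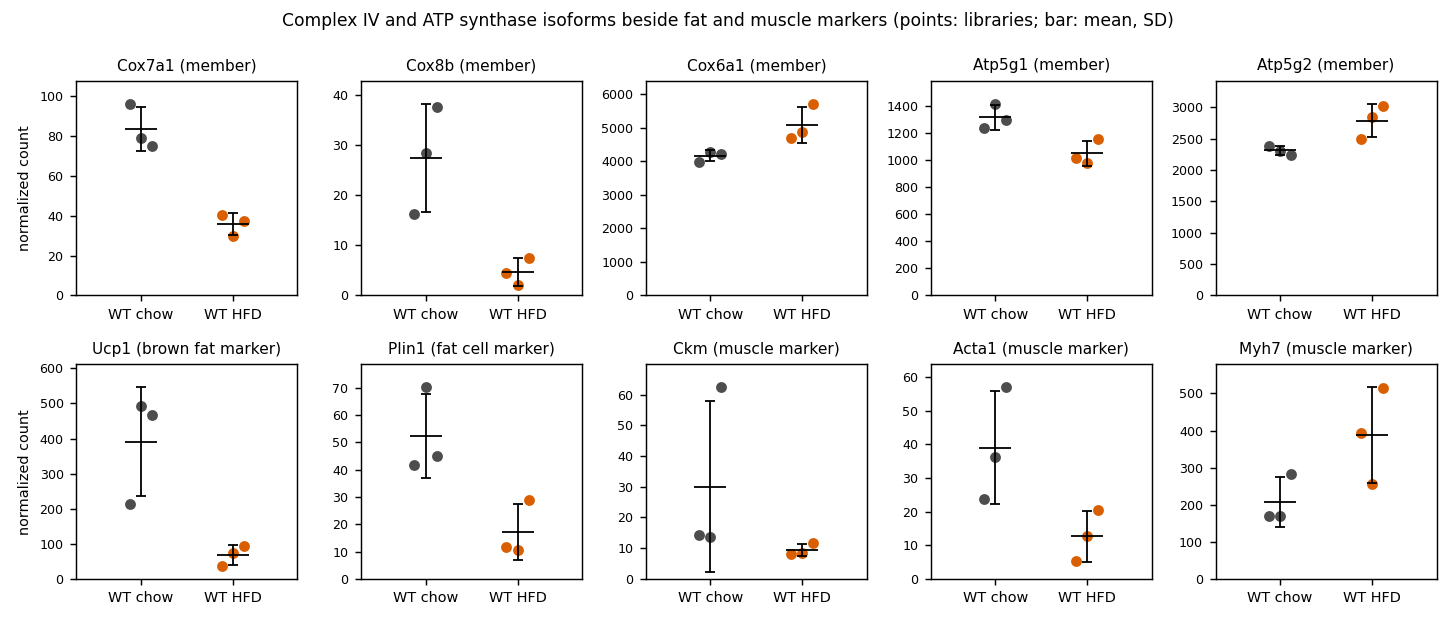
Normalized counts (counts divided by a size factor) in WT chow and WT HFD libraries for 5 respiratory chain isoforms (top) and the 5 listed brown fat and muscle markers (bottom), with points for libraries and bars for the mean and SD of 3. Cox7a1 and Cox8b are lower on HFD as are Atp5g1, Ucp1, Plin1, Ckm and Acta1, whereas Cox6a1, Atp5g2 and the muscle marker Myh7 are higher.

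Both listed genes of the ATP synthase c subunit were called, in opposite directions. Atp5g1 and Atp5g2 encode the same mature c subunit of the membrane rotor from different precursors. Atp5g1 had 1236, 1415 and 1297 normalized counts on chow and 1018, 976 and 1155 on HFD, and fell by 0.33 on the log2 scale (SE 0.12, edgeR adjusted p = 0.135). Atp5g2 had 2389, 2302 and 2248 on chow and 2504, 2849 and 3021 on HFD, and its log2 fold change was 0.27 (SE 0.11, edgeR adjusted p = 0.170). Both differences were small, and no chow library of either gene fell within the HFD range. Atp5e, the epsilon subunit of the central stalk, rose by 0.34 (SE 0.13, edgeR adjusted p = 0.148), and its value without WT HFD library 3 was 0.22, not called. mt-Atp6, the stationary a subunit beside the rotor, encoded in mitochondrial DNA, had 856, 571 and 554 normalized counts on chow and 495, 500 and 444 on HFD. Its log2 fold change was -0.46 (SE 0.20, edgeR adjusted p = 0.186) and was not called. The first chow library was well above the other 2, without it the value was -0.23, and the read count covers a gene that overlaps mt-Atp8 and mt-Co3 in the annotation.

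Endothelial markers moved in the same comparison. Of 14 markers 13 were listed, 12 called higher on HFD and none lower, with a median log2 fold change of 1.40 and a summed level of 312 to 877 FPKM on chow and 942 to 1662 on HFD. Pecam1, the CD31 antigen of the selection, had a log2 fold change of 1.19 and Cdh5 1.58. The 22 respiratory chain genes that rose had a median of 0.28, 0.36 and 0.46 above the chow mean in the 3 HFD libraries. In the same order, Cdh5 had 51037, 39015 and 26290 normalized counts and Pecam1 38134, 33869 and 22796. Each of the 13 listed endothelial markers was lowest in the third HFD library, where the median of the 22 genes was highest. Capillary endothelial markers (2 of 5 listed) rose as well, 8 lung epithelial markers gave 4 higher and 2 lower, and 4 myeloid markers 2 in each direction. Lymphoid markers gave 3 of 10 listed, all higher. The part of cell composition in the respiratory chain values was not tested.

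Other mitochondrial genes, in lists of known function, were read beside the family. Of 39 further assembly and cytochrome c genes 11 were listed, 8 higher, 2 lower and 1 not called, including Surf1 (0.44), which acts in complex IV assembly, and Uqcc1 (0.46), which acts in complex III assembly. Of 20 genes of mitochondrial fatty acid oxidation 5 were listed, and Acadl (0.56), Decr1 (0.59), Acaa2 (0.42) and Hadh (0.28) rose while Cpt1b fell. Of the genes that feed or form the tricarboxylic acid cycle, Sucla2 (0.25) and Pdha1 (0.29) were higher. In mitochondrial import, 4 of 23 genes were listed, 2 higher and 1 lower, and of 11 genes of reactive oxygen defence Prdx3 (0.29) was listed and higher. Glycolysis gave 6 of 20 genes, 3 in each direction. Of 24 regulators of mitochondrial gene expression 8 were listed, 6 lower and 2 higher. Those lower were Pprc1 (-0.84), a coactivator related to PGC-1, Esrrg (-0.88), an estrogen-related receptor, Twnk (-0.59), the mitochondrial DNA helicase, Polg2 (-0.40), Tfb2m (-0.36) and Gabpb1 (-0.32), while Tfb1m (0.56) and Tefm (0.54) were higher.

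Leaving out a library changed how many of the 26 genes were called. Their directions also held, but this was set in advance, as the groups did not overlap for any of the 26. Without WT chow library 1, 15 were called, without WT chow library 2, WT chow library 3, WT HFD library 2 or WT HFD library 3, 14, and without WT HFD library 1, the deepest, 20. Called in all 6 of these fits were 10 genes: Ndufv2, Ndufa7, Ndufa8, Ndufb3, Ndufb9, Ndufaf3, Ndufaf6, Cox15, Cox7a1 and Cox8b.

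The effect of endothelial TET2 loss was next compared under HFD, where 11 of the 30 genes were listed. Of these, 7 were called and all 7 were lower in TET2 KO than in WT. They were Ndufa8, Ndufb4, Ndufb9 and Ndufs4 of the accessory subunits of complex I, its assembly factors Ndufaf3 and Ndufaf6, and Sdhc, a membrane anchor of complex II. Ndufa7, Ndufs5, Ndufv2 and Cox7a1 were not called. In the whole table of 3939 genes, 82.3% were called, 43.1% higher and 39.1% lower. The median log2 fold change of the 11 genes was -0.37, against 0.33 for all listed genes and -0.43 for listed coding genes with a mean of at least 50 counts, of which 39.1% were higher. None of the 11 passed after adjustment by edgeR over 18703 genes (0% of the table did). DESeq2, run on the same counts, called 10 at an unadjusted p under 0.05. That count was largely set in advance, as the authors had listed genes by DESeq2. The groups did not overlap for 10 of the 11 genes, against 74.7% of the table. The family made up 9.17% of its annotated genes in this table, against 13.6% for protein-coding genes.

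Ndufaf3 had 404, 444 and 429 normalized counts in WT HFD and 269, 286 and 334 in TET2 KO HFD libraries. All TET2 KO libraries were below all WT libraries, and Ndufaf3 fell by 0.52 on the log2 scale (SE 0.16, edgeR adjusted p = 0.261). It was the 1 gene that remained called in each fit without a library. Ndufa8, an accessory subunit on the intermembrane space side, had 1252, 1218 and 1444 in WT and 868, 1017 and 1016 in TET2 KO, and fell by 0.43 (SE 0.15, edgeR adjusted p = 0.275). Sdhc had 2135, 2090 and 2384 in WT and 1348, 1807 and 1740 in TET2 KO, and fell by 0.43 (SE 0.16, edgeR adjusted p = 0.291). In both genes the first TET2 KO library was the lowest of the 6. Ndufb9 fell by 0.47 (SE 0.18) and Ndufb4 by 0.35 (SE 0.14), with edgeR adjusted p values of 0.296 and 0.307. Ndufaf6 had 161, 150 and 121 in WT and 79.5, 73.3 and 123 in TET2 KO, and its groups overlapped, as the third TET2 KO library was above the third WT library. Its log2 fold change was -0.65 (SE 0.27, edgeR adjusted p = 0.319).

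**Figure D3:**
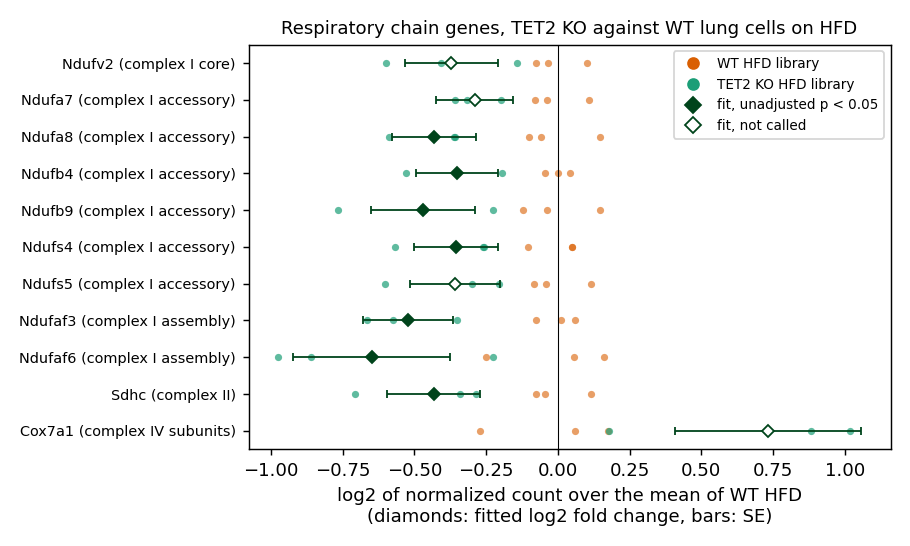
Each row is a respiratory chain gene listed in TET2 KO against WT on HFD. Small points are the 3 libraries of each group as log2 of the normalized count over the mean of WT HFD, diamonds are fitted log2 fold changes with bars of 1 SE, and filled diamonds had an unadjusted p under 0.05. The 10 genes of complexes I and II lie between -0.29 and -0.65, and Cox7a1 lies at 0.73 and was not called.

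Cox7a1 was the listed gene with a higher mean in TET2 KO, with 40.3, 29.6 and 37.3 normalized counts in WT and 72.4, 65.9 and 40.4 in TET2 KO. The third TET2 KO library was close to the highest WT library, and the log2 fold change of 0.73 (SE 0.32, edgeR adjusted p = 0.334) was not called. Ckm, the muscle creatine kinase, had 8.06, 8.46 and 11.7 in WT and 34.2, 34.0 and 8.73 in TET2 KO, with a log2 fold change of 1.45 (SE 0.57, edgeR adjusted p = 0.301). The first and second TET2 KO libraries were the high ones for both genes. Of the 10 muscle markers Ckm alone was listed, and its level was 0.0665 to 0.0963 FPKM in WT and 0.0721 to 0.279 in TET2 KO. Its part in the value of Cox7a1 was not tested.

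Markers of endothelium were lower in this comparison. Of 14 markers 11 were listed, 9 called lower in TET2 KO and none higher, with a median log2 fold change of -1.02, and their sum was 898 to 1574 FPKM in WT and 469 to 853 in TET2 KO. Of 5 capillary markers 3 were listed, 2 of them lower, and the epithelial markers Ager and Hopx, of alveolar type I cells, were lower too. The part of these markers in the respiratory chain values was not tested. Among the other mitochondrial lists, Decr1 (-0.63), Cpt2 (-0.58) and Hadh (-0.40) of fatty acid oxidation fell (4 of 20 listed), Coa3 (-0.58) and Uqcc1 (-0.36) of the further assembly factors fell (5 of 39 listed), and Prdx3 fell (-0.46). Timm9, the 1 listed of 23 import genes, rose (0.46). Of 20 glycolysis genes 3 were listed: Slc2a1 (0.59) rose, and Pfkm (-0.59) and Hk1 (-0.30) fell. All 6 listed regulators of 24 rose: Pprc1 (0.72), Tfam (0.45), which packages mitochondrial DNA, Polg2 (0.44), Gabpb1 (0.43), Tfb2m (0.41) and Gabpb2 (0.32). Of mitochondrial ribosomal protein genes, 14 were listed and all 14 were lower, 10 of them called.

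Leaving out a library moved the count of 7 by more than 1.5 times in most fits. It was 2 without TET2 KO HFD library 1, WT HFD library 1 or WT HFD library 3, 3 without TET2 KO HFD library 2 or WT HFD library 2, and 9 without TET2 KO HFD library 3. No gene changed direction, which was set in advance for the 10 of 11 genes whose groups did not overlap.

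In all, 9 genes were listed in both comparisons above (9 of 26 and 9 of 11): Ndufa7, Ndufa8, Ndufaf3, Ndufaf6, Ndufb4, Ndufb9, Ndufs4, Ndufv2 and Cox7a1. As both comparisons use the same WT HFD libraries and both required a difference from them for listing, a high value in those libraries enters both, and the levels are given side by side without a test. Of all 2947 genes listed in both tables, 2946 had opposite signs in them, so that the order of these groups was shared by nearly all such genes and is no trait of the family. Ndufv2 was at 14.3 ± 0.927 FPKM in WT chow, 18.5 ± 1.21 in WT HFD and 14.3 ± 2.38 in TET2 KO HFD (SD). Ndufa8 was at 28.1 ± 0.933, 36.3 ± 3.40 and 26.9 ± 2.55 in the same order, and Ndufb4 at 7.49 ± 0.155, 9.58 ± 0.307 and 7.49 ± 0.918. Ndufaf3 was at 3.87 ± 0.448, 5.62 ± 0.249 and 3.90 ± 0.472 FPKM. The mean of TET2 KO HFD was within 1 SD of that of WT chow for Ndufv2, Ndufb4 and Ndufaf3. For Ndufa8 it was lower by more than the SD of WT chow but less than that of TET2 KO HFD, and the libraries of these 2 groups overlapped. Cox7a1 had the reverse order, with 3.74 ± 0.500 FPKM in WT chow, 1.60 ± 0.251 in WT HFD and 2.66 ± 0.741 in TET2 KO HFD. Values of these genes in TET2 KO chow libraries, other than for Ndufaf6, were not analysed here.

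**Figure D4:**
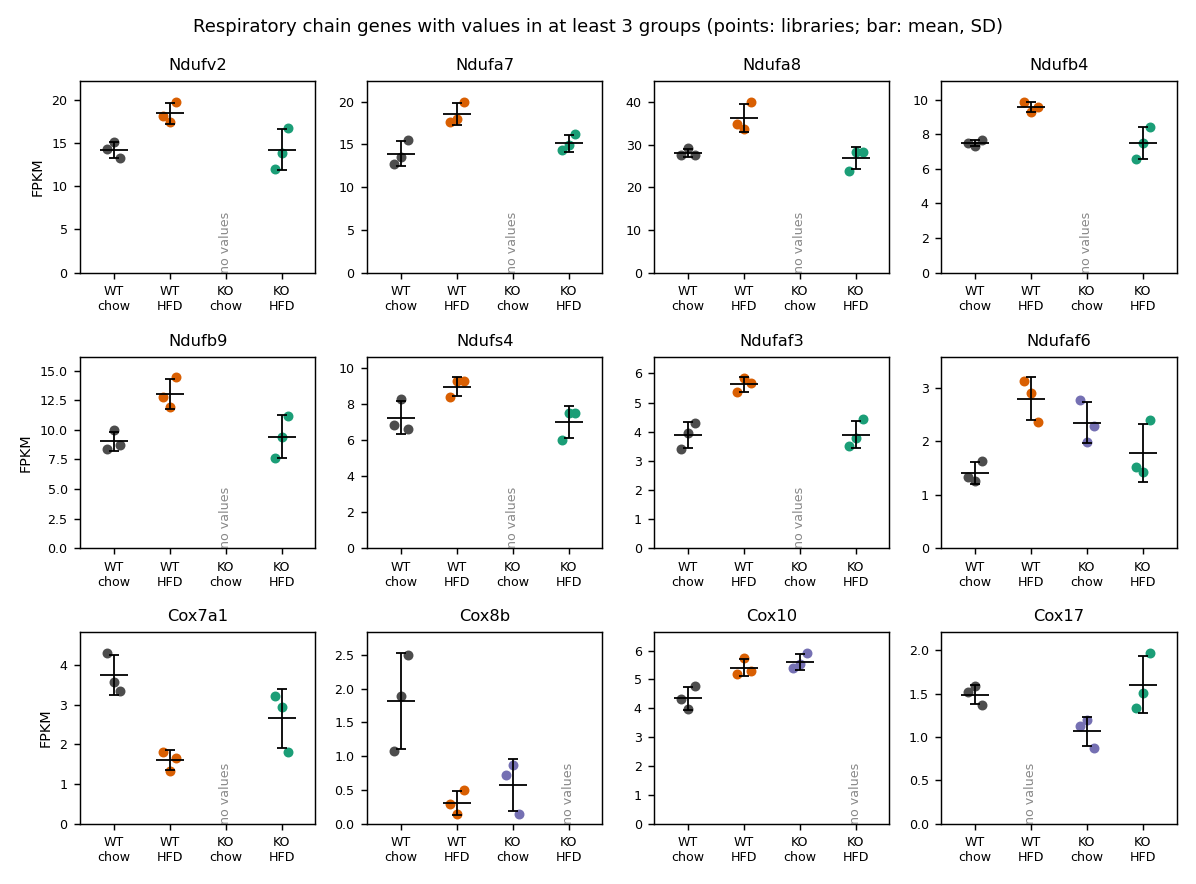
FPKM of the 12 respiratory chain genes with values in at least 3 groups, with points for libraries and bars for the mean and SD of 3, all axes starting at 0. In the first 7 panels WT HFD is the highest of the 3 groups with values, Cox7a1 shows the reverse order, and Ndufaf6 has values in all 4 groups.

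On chow, 5 of the 30 genes were listed in TET2 KO against WT, 4 of them called, 2 higher and 2 lower. In the table of 1298 genes 76.6% were called. The family's 5 genes were 4.17% of its annotated members, close to 4.13% of protein-coding genes. The genes higher in TET2 KO were Cox10, with 538, 481 and 578 normalized counts in WT and 663, 669 and 725 in TET2 KO (log2 fold change 0.36, SE 0.15), and Ndufaf6, with 67.1, 62.1 and 81.0 in WT and 139, 98.1 and 114 in TET2 KO (0.74, SE 0.24). The genes lower were Cox17, the copper chaperone of complex IV, with 359, 366 and 316 in WT and 265, 274 and 203 in TET2 KO (-0.49, SE 0.19), and Cox8b, with 15.9, 27.2 and 35.9 in WT and 10.4, 12.5 and 2.04 in TET2 KO (-1.63, SE 0.58). Groups did not overlap for these genes or for Sdhaf3, a complex II assembly factor that was not called (0.49, SE 0.22), against 74.7% of the table. None of the 5 passed after edgeR adjustment over 18463 genes (0% of the table did), each with an adjusted p of 1. DESeq2 called all 5 at an unadjusted p under 0.05, which was largely set in advance, as the authors listed genes by DESeq2. Without WT chow library 2 none was called, without WT chow library 1, TET2 KO chow library 1 or TET2 KO chow library 3, 2 were. The fitted values of Cox8b ranged from -2.03 to -1.19 over the 6 fits.

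Ucp1 was also lower in TET2 KO on chow, with 208, 474 and 446 normalized counts in WT chow and 131, 248 and 173 in TET2 KO chow, a log2 fold change of -1.03 (SE 0.37). The groups overlapped for Ucp1, the 1 listed of 4 brown fat markers, whose level was 3.11 to 7.24 FPKM in WT and 1.98 to 3.81 in TET2 KO. Myh7, the 1 listed of 10 muscle markers, was higher in TET2 KO (0.69), at 0.469 to 0.786 FPKM in WT and 0.701 to 1.11 in TET2 KO. Of 10 fibroblast and smooth muscle markers 4 were listed and lower, and 4 of 15 epithelial markers were listed, of which 3, those of club cells, were lower. Of 10 lymphoid markers 4 were listed, 3 of them higher, with a sum of 37.7 to 59.3 FPKM in WT and 70.8 to 92.2 in TET2 KO, and the 1 listed of 12 myeloid markers, Ccr2 (1.01), was higher. The part of these markers in the value of Cox8b was not tested. Of the other lists, Ppargc1b (0.63), a coactivator of mitochondrial genes, and Coa4 (0.69), which acts in complex IV assembly, were higher, and Gapdh (-0.67) and Aldoc (-0.45) of glycolysis were lower.

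HFD against chow in TET2 KO mice held a single gene of the family, 0.833% of the annotated members against 5.63% of protein-coding genes. Cox17 had 263, 276 and 201 normalized counts in TET2 KO chow and 309, 349 and 459 in TET2 KO HFD. The groups did not overlap, as for 72.6% of the table, and Cox17 rose by 0.59 on the log2 scale (SE 0.23, edgeR adjusted p = 0.828), where 77% of the 1628 listed genes were called and 0.0614% passed after adjustment. The call was lost without TET2 KO chow library 1, TET2 KO chow library 3 or TET2 KO HFD library 3 (0.64, 0.46 and 0.41). Per length, Cox17 was at 1.49 ± 0.111 FPKM in WT chow, 1.07 ± 0.170 in TET2 KO chow and 1.60 ± 0.330 in TET2 KO HFD (SD). In the same comparison 4 of 12 myeloid markers were listed, 3 of them lower on HFD, and the sum of the 4 was 3965 to 5551 FPKM on chow and 1998 to 3388 on HFD. Among the 4, Lyz2 was the highest, with 230133, 284247 and 203600 normalized counts on chow and 102837, 173459 and 161878 on HFD. Mrc1, the next highest, had 25085, 27565 and 14620 on chow. Of 10 lymphoid markers 2 were listed, both lower (40.4 to 51.5 FPKM on chow, 24.3 to 31.2 on HFD), and of 10 fibroblast and smooth muscle markers 4 were listed, 2 of them higher (2.49 to 3.29 FPKM on chow, 3.86 to 8.27 on HFD). Emcn, the 1 listed of 14 endothelial markers, was higher (0.98), and Epcam, the 1 listed of 15 epithelial markers, was lower (-0.60). The part of these markers in the value of Cox17 was not tested. The comparisons of Cox17 share the TET2 KO chow libraries, and its exons overlap those of Gm21987 on the same strand.

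Ndufaf6 was the 1 gene of the family with values in all 12 libraries. It is an assembly factor of complex I that acts on the mitochondrially encoded subunit ND1. FPKM values were 1.33, 1.26 and 1.64 in WT chow, 3.14, 2.91 and 2.35 in WT HFD, 2.77, 1.99 and 2.29 in TET2 KO chow, and 1.53, 1.42 and 2.40 in TET2 KO HFD. WT chow was the lowest group and WT HFD the highest by mean, with TET2 KO chow (2.35 ± 0.391) and TET2 KO HFD (1.78 ± 0.538) between them and overlapping each other. As an interaction term of edgeR, the HFD effect was lower in TET2 KO than in WT by 1.39 on the log2 scale (SE 0.38). The term is given as a description with no test, because Ndufaf6 has values in all 12 libraries only through being listed for TET2 KO against WT on both diets, with opposite signs, as had 457 of the 461 genes listed in both of those comparisons. It lay between -1.66 and -1.25 when each library was left out in turn.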

How the data were processed

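RNA from CD31-selected lung cells of 12 mice (4 groups of 3) was sequenced. Per the labels and methods, the authors aligned reads with HISAT2 to mm10, counted them with featureCounts and compared groups with DESeq2. Versions and the strand setting are not given in the sources used here. The deposited tables hold raw counts per gene, normalized counts (the signal left after dividing by a size factor per library) and FPKM, and list genes by the authors' unadjusted p. Their p-values served only to recover how many genes had been adjusted, and the authors' log2 fold changes and group means were not used. Here, counts of all listed genes of a table were fitted with edgeR 4.0.16 (quasi-likelihood test, two-sided, in R 4.3.3), with size factors recovered from the deposited values and no covariate, and p-values were adjusted over the recovered number of genes. SEs are the log2 fold change over the square root of the F statistic. For 3 against 3 libraries an exact permutation test cannot go below 0.1, so none was used. DESeq2 1.42.0 and limma 3.58.1 were alternatives. The fits were tested on simulated counts with the same variability for every gene and no listing by p. That run cannot show how p-values behave for genes already selected by p. Named genes were the mitochondrial genome's, the tissue isoforms, up to 3 per complex, comparison and direction by p, those in 3 or more tables and those past a log2 fold change of 1. The members, gene lists, motifs and rules were chosen with earlier results of these data known.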

Additional observations from a re-analysis of the deposited data

How the results depend on the processing

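No gene of the family reversed direction in any comparison under any alternative run. For the fits without a library this was largely set in advance, as nearly all listed members had groups that did not overlap. The counts of called genes depended on the threshold and scaling. At an adjusted p under 0.05 they were 0 in TET2 KO against WT on chow, 2 in HFD against chow in WT, 0 in TET2 KO against WT on HFD and 0 in HFD against chow in TET2 KO. Scaling by TMM over the listed genes left 15 of 25 called in HFD against chow in WT (12 higher, 3 lower) and 3 of 7 in TET2 KO against WT on HFD, and lifted the count on chow from 4 to 5. In HFD against chow in TET2 KO it moved the median of all listed genes by 0.25 and the split of all calls from 477 of 1254 higher to 636 of 990, with Cox17 at 0.85. With the replicate number as a replicate block, 12 genes passed for diet in WT mice and 0 for diet in TET2 KO mice. Same-numbered libraries did not deviate together in every pair (correlations from -0.24 to 0.30), so the numbers were not taken to pair mice. The cause of these moves was not tested. Leaving out each library gave 0 to 4 called genes in TET2 KO against WT on chow, 14 to 20 in HFD against chow in WT, 2 to 9 in TET2 KO against WT on HFD and 0 to 1 in HFD against chow in TET2 KO. DESeq2, limma-trend, library totals and a minimum mean of 10 counts kept every count within 1.5 times. For DESeq2 this was largely set in advance, as the authors listed genes by it. The gene mt-Atp6 was called under library totals, by DESeq2, and without WT chow library 2 or 3. The Ndufaf6 interaction term ran, under alternatives added after seeing the data, from -1.72 with TMM to -1.25 without a library. Medians moved by less than the spread between libraries. Depth limits Cox8b most, at 2.04 to 37.6 normalized counts.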
